A study of Mus musculus with 4 samples.

Results

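The 9 genes described here encode transcription factors that set the fate of fat cell precursors: the early B-cell factors Ebf1, Ebf2 and Ebf3, the zinc-finger factors Zfp423, Zfp467 and Zfp521, and the GATA factors Gata2, Gata3 and Gata6. They were chosen by gene symbol, as every probe set whose platform annotation held 1 symbol and that symbol was among the 9. This gave 23 of the 45037 probe sets, or 9 of 18193 genes. Total RNA of immortalized mouse brown preadipocytes, the precursors of brown fat cells, was hybridized to 4 Affymetrix arrays. All cells came from a mixed C57/BL6-129 background and carried floxed alleles of G9a, the histone H3 lysine 9 methyltransferase gene (symbol Ehmt2). The 2 control arrays were of cells that received vector and are labelled wild type, and the 2 others were of cells that received Cre and are labelled G9a knock out. The vector type, the way of immortalization, the deleted exons and the time after Cre are details not given in the sources used here, nor do the labels tie the arrays to separate cultures.

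EBF factors bind DNA as dimers. EBF1 is best known for B lymphocyte fate and also promotes adipogenesis in mouse fibroblasts, while EBF2 marks brown and beige precursors and opens brown fat genes to PPARγ. ZFP423 commits cells to the fat lineage through BMP and SMAD signalling, its paralogue ZFP521 opposes adipogenesis and binds EBF1, and ZFP467 favours adipocyte over osteoblast fate in mouse marrow stroma. GATA2 and GATA3 hold white preadipocytes in an undifferentiated state and repress Pparg. GATA6 is a factor of mesoderm and endoderm development.

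The upstream sequence of 2 members is shown because Ebf3 was the EBF gene that lay lower after Cre on every probe set, and Gata3 was the member whose signal differed most between the replicate numbers. Each line gives the 250 bases before the gene start in RefSeq annotation of GRCm38.p6, 5′ to 3′ on the gene's strand, with CpG dinucleotides in capitals.
Ebf3, chr7:137314446-137314695, minus strand: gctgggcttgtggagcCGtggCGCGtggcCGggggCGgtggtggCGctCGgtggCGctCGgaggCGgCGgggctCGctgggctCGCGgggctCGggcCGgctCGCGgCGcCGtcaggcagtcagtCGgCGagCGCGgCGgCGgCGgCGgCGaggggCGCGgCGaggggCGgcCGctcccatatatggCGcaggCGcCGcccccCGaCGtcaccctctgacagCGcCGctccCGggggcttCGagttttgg
Gata3, chr2:9878601-9878850, minus strand: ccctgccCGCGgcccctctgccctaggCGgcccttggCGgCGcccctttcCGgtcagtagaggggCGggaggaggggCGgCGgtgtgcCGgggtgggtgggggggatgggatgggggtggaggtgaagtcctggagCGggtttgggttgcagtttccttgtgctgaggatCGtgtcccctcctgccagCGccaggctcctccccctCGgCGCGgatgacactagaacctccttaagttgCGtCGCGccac
The Ebf3 stretch held 43 CpG dinucleotides, more than 99.3% of the 32851 upstream sequences in the same table, whose median was 6. The Gata3 stretch held 19, more than 80.3% of them. Across the 9 upstream sequences of 6 members, an EBF motif (TCCC, any 2 bases, then GGGA, which reads the same on both strands) occurred in 0, against 0.779% of all sequences. A GATA motif (GATAA or its reverse complement TTATC) occurred in 1, an Ebf1 sequence, at 117 bases before the start (listed as -117), against 22.6% of all. The motif counts covered Ebf1, Ebf3, Zfp423, Zfp467, Gata2 and Gata3. Ebf2, Zfp521 and Gata6 were not searched, so the counts say nothing about them. DNA methylation and factor binding were not measured on these arrays.

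Values are MAS5 signals, 1 per probe set and array in arbitrary units. Array medians were 67.2 and 50.6 in vector 1 and 2 and 78 and 52.5 in Cre 1 and 2. Differences are Cre minus vector on quantile-normalized log2(signal + 16), a scale that understates changes of dim genes. Ehmt2 read 2682 and 2688 units in the vector arrays and 953 and 912 in the Cre arrays, a difference of -1.50 in replicate number 1 and -1.48 in number 2 (limma adjusted p = 0.227 without the pairing and 0.000281 with the replicate number as a block). Whether this probe set lies in the deleted stretch is not known here. Ehmt1, which encodes the partner methyltransferase GLP, differed by -0.33 ± 0.22 and did not pass. The replicate numbers were taken to pair the arrays, because X- and Y-linked transcripts differed between numbers and were alike within them: Xist read 11049 (vector) and 9810 (Cre) in number 1 against 41.8 and 58 in number 2. Eif2s3y read 141 and 228 in number 1 against 1127 and 1265 in number 2. Results with and without the pairing are called the paired and the unpaired model.

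Markers of the labelled cell type were read first. Of the 9 preadipocyte and fibroblast markers with a probe set, 8 passed the level filter, Col1a1 and Pdgfrb brightly, while Pdgfra read 247.5 and 81.7 in the vector arrays and 105.9 and 59.1 in the Cre arrays. The exception was Lum. Dcn, the decorin gene, fell in the paired model, reading 399 and 76.8 (vector) and 111.5 and 6.7 (Cre), and Thy1 was higher in number 2, at 437 and 2973.5 (vector) and 526 and 2500.1 (Cre). Of 15 brown fat and EBF2-associated genes, taken up further below, 6 lay below the median on every array. These were Ppargc1a, Ppara, Ucp1, Cidea, Cox8b and Bmp8b. Zic1 and Lhx8 lay below the median on both arrays of number 1 and above it on both of number 2. Since EBF1 and GATA3 are also lymphocyte factors and GATA2 is also a mast cell and endothelial factor, the markers of those cells were read. All 5 B cell markers, including Cd79a and Pax5, lay below the median on every array, and their summed signal was 124 and 94 in the vector arrays and 130 and 53.3 in the Cre arrays. The 5 T cell markers summed to 206.5 and 119 (vector) and 291 and 113 (Cre), with 3 below the median on every array, Cd3d, Cd3g and Cd4. Cd8a lay above the median on every array, at 120.5 and 63.1 (vector) and 141 and 69.1 (Cre). Cd3e was above it on Cre 1 alone, at 99.8. The 6 endothelial markers summed to 161.5 and 57.2 (vector) and 305 and 143 (Cre), and 5 lay below the median on every array, Kdr being the exception. The 8 mast cell markers summed to 226 and 179 (vector) and 837 and 1214 (Cre); 7 lay below the median on every array, and Tpsab1, which rose in the paired model, read 57.9 and 66.1 (vector) and 627 and 1102 (Cre). Summed signals of the 6 myoblast markers were 823.5 and 863 (vector) and 956 and 772 (Cre), of the 7 macrophage markers 839 and 785 (vector) and 1042 and 769 (Cre), of the 5 epithelial markers 345 and 400.2 (vector) and 968 and 475 (Cre), and of the 4 sympathetic neuron markers 766 and 479.7 (vector) and 745.5 and 1323 (Cre). Of these, 4 of 6 myoblast, 4 of 7 macrophage, 2 of 5 epithelial and 1 of 4 sympathetic neuron markers lay below the median on every array, among them Myod1, Ptprc, Cdh1 and Th. Markers above it on every array included Pax3, Cd14, Csf1r, Cd68, Epcam, Tubb3 and Stmn2. In the paired model Krt18 and Stmn2 rose and Tubb3 fell, and no other gene of these 4 lists passed. The part of these other markers in the results below was not tested. Fewer cells of a type and less RNA per cell cannot be told apart in such samples.

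Of the 9 genes, 7 passed the filter on low values, for which the mean log2 value over the arrays had to reach the 50th percentile of all probe sets, and Zfp423 and Gata3 did not. Of the 23 probe sets 16 passed. Cre lay below vector in both replicate numbers in 3 of the 7 genes, against 30.2% of all genes tested, and above it in 1, Ebf1, against 32.8%. In the unpaired model 0 of the 7 genes passed at a limma adjusted p under 0.05, against 0% of 11079 tested genes in either direction, and at probe set level 0 of 16, against 0.00888% higher and 0% lower. At an unadjusted p under 0.05 the genes were 2 of 7, Zfp521 and Ebf3, against 5.07% of all genes; limma without the intensity trend and in its robust form also called 0 members. In the paired model 1 gene fell, Zfp521, and 0 rose, against 0.984% of all genes lower and 3.25% higher. Both Cre arrays lay below both vector arrays in 3 of the 7 genes, Ebf3, Zfp521 and Gata6, against 13.6% of all genes, and above them in 0, against 17.5%. With the deposited scaling that count was also 3, and with median centring 4. The median difference over the 7 genes was -0.12, beside 0.0073 over all genes tested.

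The 16 tested probe sets gave counts of the same kind. Cre was lower in both numbers on 8 of them (33.2% of all tested probe sets) and higher on 1 (27.9%), and it lay below vector without overlap on 7 (15.8%) and above on 0 (14.2%). In the paired model 1 fell (0.853%) and 0 rose (2.29%). At an unadjusted p under 0.05 there were 4 unpaired (4.13%), the 3 of Ebf3 and 1 of Zfp521, and 5 paired (15.9%, and 3 of 7 genes against 18.4%). The 16 include several probe sets of 1 gene, so they are not independent.

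**Figure D1:**
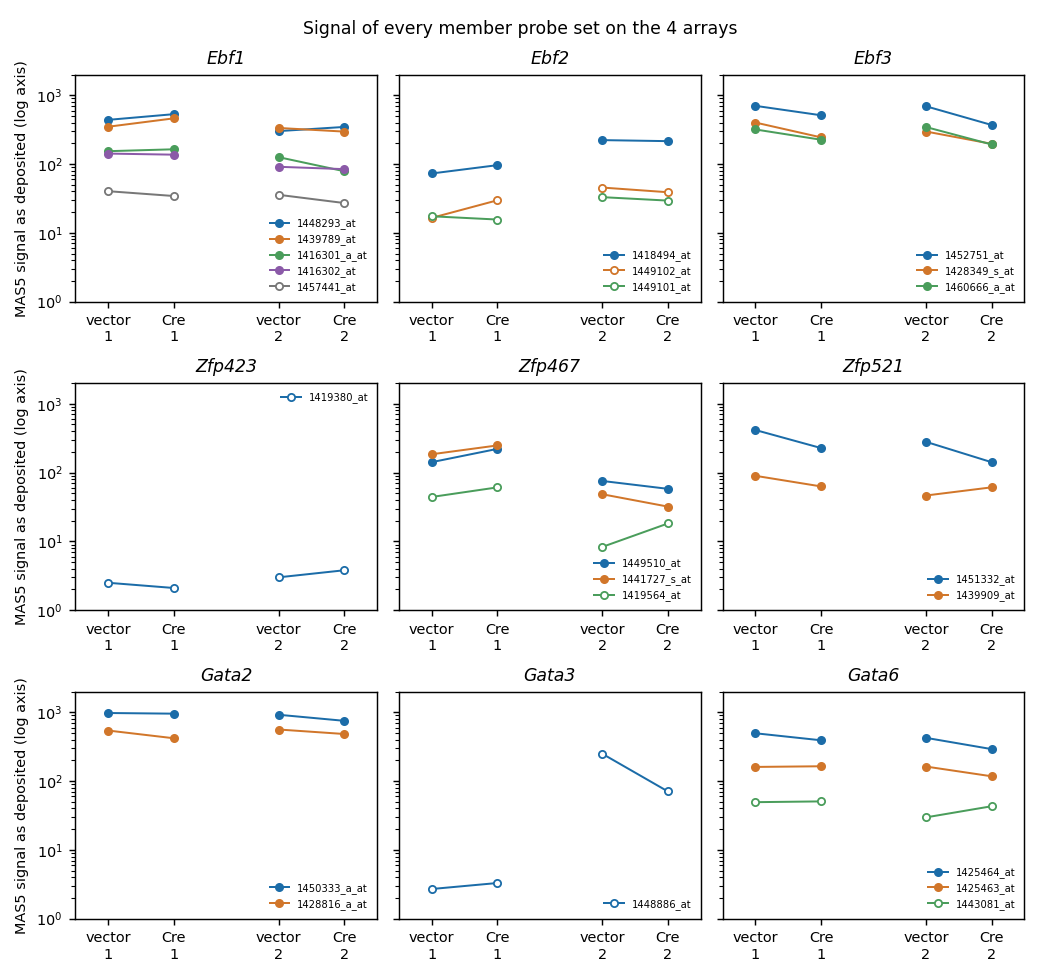
Deposited MAS5 signal (vertical log axis, arbitrary units) of each of the 23 probe sets on the 4 arrays, with 1 panel per gene; lines join the vector and Cre arrays of 1 replicate number, and open points mark probe sets below the level filter. The Ebf3 lines and the brighter Zfp521 line slope down in both numbers, Ebf2 and Gata3 sit higher in number 2, Zfp467 sits higher in number 1, and Zfp423 lies between 2.1 and 3.8 throughout.

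Among the EBF genes, Ebf3 lay lower after Cre on all 3 of its probe sets, while Ebf1 and Ebf2 showed no shared direction. The brightest Ebf3 probe set (1452751_at, gene on chromosome 7) read 701 and 691 units in the vector arrays and 511.5 and 370 in the Cre arrays. Both Cre arrays lay below both vector arrays. The differences were -0.45 and -0.83 in replicate numbers 1 and 2, and the unpaired model gave -0.64 ± 0.24 (SE, n = 2 against 2), a 1.56-fold lower signal with a 95% interval from -1.235 to -0.041. It did not pass over all probe sets (limma adjusted p = 0.999 unpaired, 0.104 paired).

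The other Ebf3 probe sets gave closely similar sizes. For 1428349_s_at, whose suffix marks possible matches to several transcripts, signals were 401 and 297 (vector) and 244 and 197 (Cre). For 1460666_a_at they were 318 and 345 (vector) and 225.5 and 192.5 (Cre). On each of these the groups did not overlap, and both mean differences were -0.66. Their limma adjusted p-values in the paired model were 0.116 and 0.12, so no Ebf3 probe set passed. The 3 probe sets read the same RNA on the same arrays and are not replicates.

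Ebf1 was measured by 5 probe sets that did not agree in direction. The brightest (1448293_at, gene on chromosome 11) read 438.5 and 301 in the vector arrays and 531 and 346 in the Cre arrays, with differences of 0.29 and 0.15. The unpaired model gave 0.22 ± 0.28 (95% interval -0.46 to 0.90), and the groups overlapped. The next, 1439789_at, was higher by 0.40 in number 1 and lower by -0.18 in number 2. The 3 dimmer probe sets had mean differences of -0.30, -0.14 and -0.33, the last from 1457441_at, which lay below the level filter. None of the 4 tested probe sets passed in either model (lowest limma adjusted p = 0.617, in the paired model).

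Ebf2, the brown precursor factor, followed the replicate number and not the genotype. Its brightest probe set (1418494_at, gene on chromosome 14) read 72.9 in vector 1 and 96.3 in Cre 1, against 223 in vector 2 and 215 in Cre 2. Both arrays of number 2 lay above both of number 1, whatever the genotype. The Cre minus vector differences were 0.19 and -0.08, and the unpaired model gave 0.05 ± 0.67 with a 95% interval from -1.58 to 1.69. In the paired model the interval ran from -0.47 to 0.58. In that model number 2 exceeded number 1 by 1.54 ± 0.24, or 2.9-fold (limma adjusted p = 0.00281), a difference called higher in 8.46% and lower in 8.26% of all genes. The other Ebf2 probe sets, 1449102_at and 1449101_at, were below the level filter, at 16.5 to 45.5 and 15.6 to 33 units, and were also higher in number 2 without overlap.

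**Figure D2:**
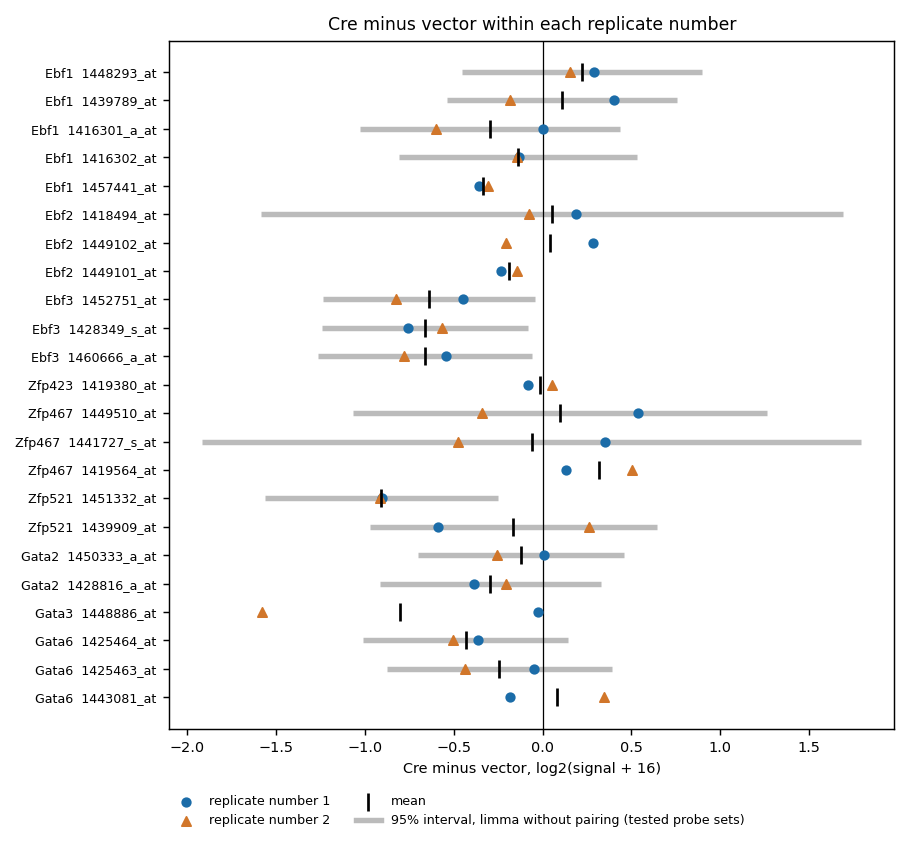
Cre minus vector difference on log2(signal + 16) (horizontal axis) for each of the 23 probe sets, as a circle for replicate number 1, a triangle for number 2 and a tick for their mean, with grey bars for the 95% interval of the unpaired limma model. For Ebf3 all 6 points lie below 0, the brighter Zfp521 probe set has both points near -0.9, and the Zfp467 probe sets that passed the filter have points on opposite sides of 0.

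Among the zinc-finger genes, Zfp521 was the member that fell in the paired model. Its brighter probe set (1451332_at, gene on chromosome 18) read 415 and 280 units in the vector arrays and 227 and 141.5 in the Cre arrays. Every Cre array lay below every vector array, and number 2 lay below number 1 in both groups. The difference was -0.90 in replicate number 1 and -0.91 in number 2, a 1.88-fold lower signal (-0.91 ± 0.27 unpaired, 95% interval -1.564 to -0.25). With the pairing the limma adjusted p was 0.0352, without it 0.865, and with the pairing but no level filter 0.202. The second, dimmer probe set (1439909_at) read 89.7 and 46.4 (vector) and 62.9 and 61 (Cre), with differences of -0.59 and 0.26. It did not share the fall in number 2 and did not pass (limma adjusted p = 0.854, paired model).

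Zfp423, the paralogue of Zfp521 with the opposite role, was represented by 1 probe set (1419380_at, gene on chromosome 8). It read 2.5 and 3 units in the vector arrays and 2.1 and 3.8 in the Cre arrays, below the median on all 4 arrays. At that level the scale of log2(signal + 16) can hardly show a change, and the differences were -0.08 and 0.06. Whether this probe set can report the transcript was not tested.

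Zfp467 differed more between replicate numbers than between genotypes. Its brightest probe set by mean (1449510_at, gene on chromosome 6) read 142 and 75.5 in the vector arrays and 221 and 58 in the Cre arrays. Cre was higher by 0.54 in number 1 and lower by -0.34 in number 2, so that the mean was 0.10 ± 0.48 (95% interval -1.07 to 1.27). The second probe set (1441727_s_at) gave the same pattern, with 185 and 48.4 (vector) and 248 and 32 (Cre) and differences of 0.35 and -0.48. Number 2 lay below number 1 by -1.72 ± 0.28 on it, or 3.29-fold (limma adjusted p = 0.00389, paired model), and by -0.90 ± 0.28 on the first (limma adjusted p = 0.054). The third probe set (1419564_at), below the filter, read 44.2 and 8.3 (vector) and 60.9 and 18.2 (Cre), again lower in number 2 without overlap.

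Among the GATA genes, Gata6 lay lower after Cre without passing, Gata2 varied little, and Gata3 signal was above the array median in number 2 alone. The brightest Gata6 probe set (1425464_at, gene on chromosome 18) read 496 and 425.5 in the vector arrays and 392 and 292 in the Cre arrays, without overlap. The differences were -0.36 and -0.50, and the unpaired model gave -0.43 ± 0.24 (95% interval -1.01 to 0.14). It did not pass in either model (limma adjusted p = 0.999 unpaired, 0.286 paired). A second probe set (1425463_at) read 161 and 163 (vector) and 164 and 117.5 (Cre), with differences of -0.05 and -0.44, the first of which became 0.029 with the deposited scaling. The third (1443081_at), below the filter, had -0.18 and 0.35.

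Gata2 was bright on both probe sets. The brightest (1450333_a_at, gene on chromosome 6) read 977 and 921 in the vector arrays and 956 and 752 in the Cre arrays. The groups overlapped, with differences of 0.0086 and -0.25 and a mean of -0.12 ± 0.24 (95% interval -0.70 to 0.46). The other (1428816_a_at) read 543 and 562 (vector) and 420 and 484 (Cre), where the groups did not overlap, with a mean of -0.29 ± 0.25. Neither passed in either model (lowest limma adjusted p = 0.47, paired model).

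Gata3 had 1 probe set (1448886_at, gene on chromosome 2), which read 2.7 and 3.3 units in vector 1 and Cre 1, against 249.5 in vector 2 and 70.7 in Cre 2. Both arrays of number 1 lay below their array medians and both of number 2 above. Within number 2 the Cre array was lower by -1.58, which rests on 1 array of each genotype and has no replicate check, and within number 1 the difference was -0.03. Its mean over all arrays fell below the level filter. The log2 difference between the numbers was 3.18, but both readings of number 1 were near the bottom of the range, so its size is set by the 16 units added before the log and no test of it is given.

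**Figure D3:**
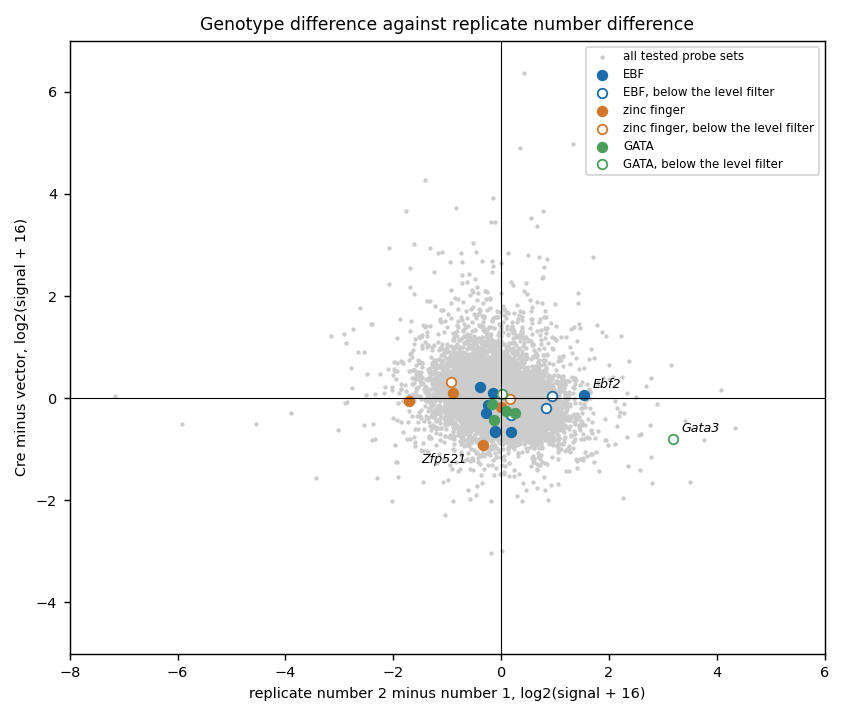
Cre minus vector difference (vertical axis) against the difference of replicate number 2 minus number 1 (horizontal axis), both on log2(signal + 16), for 22519 tested probe sets in grey and the 23 member probe sets in colour, open where below the level filter. Gata3 at 3.18 and Ebf2 at 1.54 lie to the right and Zfp467 at -1.72 to the left, near 0 or below on the vertical axis, while Zfp521 is the lowest tested member at -0.91.

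On the brightest probe set of each gene, the number difference exceeded the genotype difference in size for 4 of the 7 tested genes, Ebf1, Ebf2, Zfp467 and Gata2, against 61.6% of all genes. The arrays of the numbers did not overlap for the same 4 genes, against 53.5% of all genes. At probe set level these counts were 7 of 16 (61.9%) and 6 of 16 (53.0%), and the number difference passed on 2, higher on 1 of Ebf2 (7.39%) and lower on 1 of Zfp467 (7.6%). Both gene counts lay near the background. All 3 probe sets of Ebf2 and all 3 of Zfp467 were parted by number, Ebf2 higher and Zfp467 lower in number 2. The 3 genes on chromosomes 7 and 18, Ebf3, Zfp521 and Gata6, had number differences of -0.12, -0.34 and -0.13.

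The gene whose 4-array pattern lay closest to that of Zfp521, among 11078 other tested genes and by the root mean square distance of centred log2 values, was Trim71, at a distance of 0.064. Nectin2 followed at 0.073 and Man2a1 at 0.083. Trim71 was dim, at 148.5 and 85.1 (vector) and 72 and 36.7 (Cre), with 2 arrays below their median. It did not pass in the paired model (limma adjusted p = 0.0803). Nectin2, a cell adhesion gene, read 669 and 521 (vector) and 367 and 223 (Cre), and Man2a1, a Golgi mannosidase gene, 7919.5 and 6613 (vector) and 4701 and 3418 (Cre). These genes were picked for that pattern, so their differences are a description.

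Genes that work with the members were read from 6 lists, and in the unpaired model 0 of their members passed in either direction. The paired counts below stand beside 0.984% of all tested genes lower and 3.25% higher. The list medians stand beside 0.0073 over all tested genes. Among the other EBF and GATA family genes and FOG cofactors, 3 of 7 passed the level filter. Zfpm2, which encodes the GATA cofactor FOG2, fell in the paired model: it read 895 and 810 units in the vector arrays and 467 and 316 in the Cre arrays, with differences of -0.95 and -1.23 (limma adjusted p = 0.00793 paired, 0.625 unpaired, and 0.0824 paired with no level filter). Zfpm1, the FOG1 gene, differed by 0.51 ± 0.27, and Trps1, a GATA-type repressor gene, by -0.26 ± 0.55, and neither passed. Ebf4, Gata1, Gata4 and Gata5 lay below the filter. The median of the 3 was -0.26.

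The list of corepressor partners held NuRD and histone deacetylase genes and also Ctbp1, Ctbp2 and Tle3. All 17 of its genes passed the filter, and 0 passed the test in either model. Their differences ran from -0.37 for Mbd3 to 0.33 for Mbd2, and the median was -0.12. Chd4, the NuRD remodelling ATPase gene, differed by -0.27 ± 0.21 and Hdac1 by -0.20 ± 0.16.

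Among 14 tested genes (of 21 listed) of BMP and SMAD signalling, the route by which ZFP423 acts, 1 fell and 0 rose in the paired model, and the median was 0.017. The gene that fell was Grem1, which encodes a secreted BMP antagonist, with 3234 and 3662 units in the vector arrays and 1819 and 1583.5 in the Cre arrays (limma adjusted p = 0.00287 paired, 0.424 unpaired, and 0.0557 paired with no level filter). The inhibitory SMAD genes Smad6 and Smad7 were higher in both Cre arrays than in both vector arrays, by 0.52 ± 0.23 and 0.39 ± 0.23, and Id2, a BMP target, by 0.63 ± 0.32. None of these 3 passed (lowest limma adjusted p = 0.0693, paired). They were picked by small p, and 17.5% of all tested genes were higher after Cre without overlap. The other Id genes of the list differed by -0.067 ± 0.43 (Id1), 0.26 ± 0.26 (Id3) and -0.70 ± 0.61 (Id4), and none passed in either model. Id4 lay lower in both numbers, by -0.89 and -0.52.

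Of 20 tested (of 23 listed) adipogenic transcription factor genes, 1 rose and 0 fell in the paired model, and the median was -0.11. Mecom, a relative of Prdm16, rose, with 1249 and 948.5 units in the vector arrays and 2603 and 1455 in the Cre arrays (limma adjusted p = 0.0171 paired, 0.999 unpaired, and 0.132 paired with no level filter). Nr2f2 differed by -0.82 ± 0.31, Klf5 by -0.59 ± 0.28 and Foxo1 by 0.66 ± 0.29, and none of them passed in either model. With the pairing and the deposited scaling, Nr2f2 and Klf5 did pass (limma adjusted p = 0.0259 and 0.0404). Of 7 tested (of 15 listed) brown fat and EBF2-associated genes 1 rose in the paired model, Pdk4, a pyruvate dehydrogenase kinase gene. It read 265 and 238 (vector) and 531 and 517 (Cre), a difference of 0.99 ± 0.23 (limma adjusted p = 0.0162 paired, 0.63 unpaired, and 0.125 paired with no level filter). Prdm16 differed by 0.89 ± 0.30, Dio2 by 0.60 ± 0.39 and Tbx15 by -0.35 ± 0.29 without passing. The list's median was 0.16, with 0.44 in number 1 and -0.12 in number 2. Of 5 tested (of 12 listed) adipocyte genes 1 rose in the paired model, Fabp4. Its difference was 2.65 ± 0.27 with the unpaired SE (limma adjusted p = 0.000104 paired and 0.145 unpaired). Slc2a4, Lpl and Dgat2 differed by 0.42 ± 0.39, 0.27 ± 0.49 and -0.12 ± 0.27 without passing, and the median was 0.27.

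**Figure D4:**
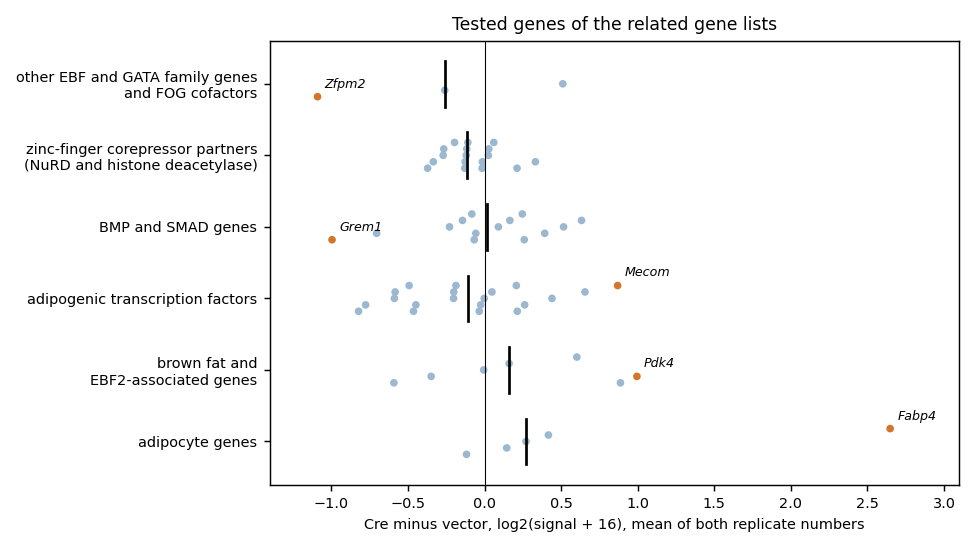
Cre minus vector difference on log2(signal + 16) (horizontal axis) of every tested gene in the 6 related lists (rows), with orange points for genes called in the paired limma model, blue points for the others and black ticks for list medians. Zfpm2 lies at -1.09 with Grem1 just above it, Mecom and Pdk4 at 0.87 and 0.99 and Fabp4 at 2.65, while all 17 corepressor genes lie between -0.37 and 0.33.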

How the data were processed

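Gene expression was measured on 4 Affymetrix arrays, 2 of vector and 2 of Cre-treated cells. The authors deposited 1 signal intensity per probe set and array, made with MAS5 per the submitters' processing notes; the MAS5 version and its options were not given in the sources used here. The deposited means after trimming 2% from each end were 500.003 on every array, so arrays had been scaled alike before deposit. The 64 control probe sets were left out. Symbols came from the platform annotation and were updated through RefSeq (GRCm38.p6): 34945 probe sets had 1 symbol, 932 several and 9160 none, and 34741 matched. Each gene's value is that of its probe set with the highest mean.

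Intensities were quantile normalized, taken as log2(signal + 16) and filtered on the mean at the 50th percentile, which left 22519 probe sets and 11079 genes. Differences, SEs and 95% intervals came from limma 3.58.1 (R 4.3.3), lmFit and eBayes with an intensity trend, with Benjamini-Hochberg adjustment over all tested probe sets. The unpaired model had 2 residual and 4.10 prior degrees of freedom, and the paired model (replicate number as block) 1 and 9.81. Deviations of same-numbered arrays had a correlation of 0.603 (across probe sets, no independent replicates). With 2 arrays a group an exact two-sided permutation p cannot be below 0.333, and precision is limited by having 4 arrays. The p-values measure only the spread between these arrays. In the unpaired model that spread includes the difference between the replicate numbers, across which Xist and Eif2s3y differed. The spread left in the paired model may be technical. The fitting script was tested on simulated data.

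The members and lists were chosen with earlier results of these data known. Named were all members with every probe set, Ehmt2 and Ehmt1. From each list, up to 4 tested genes with the smallest p and those called in the paired model were named. Named in addition were Zic1 and Lhx8 for their number difference, and the other Id genes beside Id2. So were the brown fat genes below the median on every array, and Ctbp1, Ctbp2 and Tle3 to describe their list. For likeness, the 3 nearest genes to the member with the smallest p were named. Alternatives were the deposited scaling, median centring, pseudocounts of 1 and 64, no filter or the 75th percentile, eBayes without trend or robust, the replicate block, and each array left out in turn.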

Additional observations from a re-analysis of the deposited data

How the results depend on the processing

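Without the replicate block the members called were 0 under every alternative run. With the replicate block 1 gene and 1 probe set were called, Zfp521 with -0.91 (adjusted p = 0.0352), likewise 1 with the block and the deposited scaling (-0.87; adjusted p = 0.0259), and 0 with the block and no filter. Without the block the adjusted p of Zfp521 ran from 0.697 to 1. The other calls reported here from the paired model were absent in the unpaired model. They were Ehmt2, Zfpm2, Grem1, Mecom, Pdk4, Fabp4, Nectin2, Man2a1, Dcn, Tpsab1, Krt18, Stmn2 and Tubb3. Under at least 1 other setting without the block Fabp4 did pass. With the block and no filter, the calls of Zfpm2, Grem1, Mecom and Pdk4 ended and those of the brightest Ehmt2 probe set and Fabp4 held, with adjusted p-values of 0.0163 and 0.017. With the block and deposited scaling Nr2f2 and Klf5 also passed. Probe sets called over the whole table were 2 in the unpaired model, 16 with median centring, 1 with a pseudocount of 1, 1 with the 75th percentile filter, 0 with no filter, 0 without the trend, 708 with the block, 980 with the block and deposited scaling, and 84 with the block and no filter. They ran from 7 to 28 with 1 array left out, which unbalances the replicate numbers. Median centring moved the median of all tested probe sets from -0.023 to -0.11, so differences under it are shifted down by about that much.

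Among tested members, 1 changed direction under a setting that kept all arrays: Zfp467 (1441727_s_at), with 0.0080 at a pseudocount of 64 against -0.06. Below the level filter, the mean of Zfp423 also changed sign with the deposited scaling, where its differences were -0.03 and 0.06. With 1 array left out, differences that crossed 0 ran from -0.0046 to 0.45 and from -0.11 to 0.33 for Ebf1 (1448293_at and 1439789_at), -0.78 to 0.89 for Ebf2, -0.57 to 0.77 and -1.13 to 1.005 for Zfp467, -0.38 to 0.048 for Zfp521 (1439909_at), -0.27 to 0.025 for Gata2 (1450333_a_at), -0.93 to 0.41 for Trps1, -0.44 to 0.98 for Lpl and -0.36 to 0.12 for Dgat2. Ebf3 (1452751_at) stayed between -0.79 and -0.48 and Zfp521 (1451332_at) between -1.08 and -0.74.

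List medians moved with median centring to -0.22 for corepressor partners, -0.081 for BMP and SMAD genes and -0.23 for adipogenic factors, and with the 75th percentile filter to 0.13 for BMP and SMAD genes and -0.018 for adipogenic factors. With 1 array left out they ran from -0.93 to 0.41 for the EBF, GATA and FOG list, -0.12 to -0.059 for corepressor partners, -0.056 to 0.16 for BMP and SMAD genes, -0.30 to 0.077 for adipogenic factors, 0.18 to 1.04 for brown fat genes and 0.097 to 0.46 for adipocyte genes. The cause of these moves was not tested. Dim members, Zfp423 above all, are limited by signal over background, for which the deposited table gives no detection call.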
